A study of Mus musculus with 2 samples.

Results

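Cell cycle and DNA replication genes were followed in intestinal RNA of mice with a labelled gut-specific knockout of Gpcpd1 and of wild-type mice. The members are 38 named genes, from origin licensing through the cyclins to the mitotic checkpoint, and every gene probe carrying a member's name in both scanner files was taken. That gave 61 of the 41174 probes on the array, printed as 79 of 43379 gene spots. All 38 genes had a probe that the scanner software marked as well above background and that was therefore tested, 55 of the 61 probes in all. The other 6 were further probes of Top2a, Mcm4, Cdk1, Foxm1, Rrm1 and Kif11.

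The product of Gpcpd1, GDE5, is an enzyme that splits glycerophosphocholine and so frees choline. The RNA labelled knockout came from C57BL/6 males with gut-specific loss of GDE5, and the RNA labelled wild type from males with the intact gene, all 20 weeks old and on a normal diet. Each of 2 Agilent arrays received both RNAs in different dyes, with the dyes exchanged between the arrays: knockout RNA was in Cy3 on replicate 1 and in Cy5 on replicate 2. The series text speaks of 5 mice. How the gut-specific loss was made, the stretch of gut sampled, and whether animals were pooled or the arrays shared extracts are not given in the sources used here, so the spread between the arrays may be technical only.

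The intestinal lining is renewed from the crypts, where stem cells and their transit-amplifying daughters divide rapidly, while villus cells have left the cycle. A dividing cell first loads the MCM helicase onto replication origins, fires these under cyclin E and cyclin A kinases, copies its DNA behind the PCNA clamp, and then enters mitosis under cyclin B and CDK1. Many of these genes are transcribed in waves, S phase genes through E2F factors and mitotic genes through B-MYB and FOXM1. In bulk RNA of a gut wall their level reflects the number of cycling cells of any type, and fewer dividing cells cannot be told apart from less RNA per dividing cell.

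Probes of Mki67, Top2a, Pcna, Cdk1 and Ccnb1 are shown because these genes are common proliferation markers. Those of Bub1 and Mad2l1 are shown because their ratios are set beside other probes of the same gene, and that of Ccne2 because it gave the lowest mean ratio among the members. Sequences and positions are those of the array design on mm9, given in lower case from 5′ to 3′. A position longer than the probe spans an intron; exons and UTRs are not annotated there.
Mki67, A_51_P253808, chr7:142886012-142886071, minus strand: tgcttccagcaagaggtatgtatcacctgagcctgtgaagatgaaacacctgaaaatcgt
Top2a, A_51_P252157, chr11:98857244-98858058, minus strand: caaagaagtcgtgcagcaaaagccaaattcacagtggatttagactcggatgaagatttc
Pcna, A_51_P396351, chr2:132075420-132075557, minus strand: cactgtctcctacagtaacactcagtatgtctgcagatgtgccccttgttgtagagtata
Cdk1, A_51_P450033, chr10:68805423-68807832, minus strand: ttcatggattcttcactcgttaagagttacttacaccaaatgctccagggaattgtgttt
Ccnb1, A_52_P202770, chr13:101549634-101549693, minus strand: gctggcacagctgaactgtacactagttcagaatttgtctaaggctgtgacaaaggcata
Bub1, A_51_P123405, chr2:127626988-127627047, minus strand: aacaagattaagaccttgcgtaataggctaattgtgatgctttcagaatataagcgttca
Mad2l1, A_51_P230873, chr6:66488986-66489045, plus strand: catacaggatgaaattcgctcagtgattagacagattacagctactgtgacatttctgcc
Mad2l1, A_51_P230878, chr6:66489869-66489928, plus strand: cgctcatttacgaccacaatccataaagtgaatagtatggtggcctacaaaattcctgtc
Ccne2, A_52_P58560, chr4:11130171-11130230, plus strand: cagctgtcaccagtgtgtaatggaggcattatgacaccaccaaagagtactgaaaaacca

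Spots well above background amounted to 75.3% and 70.3% in the knockout channel, against 69.3% and 76.1% in the wild-type channel, and 0 spots were saturated. The number of arrays limits the precision. Gpcpd1 itself, the labelled target, was higher in the RNA labelled knockout at 3 of its 4 probes, with mean log2 ratios of 0.47 ± 0.25, 0.62 ± 0.08, -0.13 ± 0.43 and 0.68 ± 0.56 (SD, n = 2 arrays). This goes against the genotype label, and whether any of these probes lies in the deleted part is not known here. Directions are given as the dye labels have them, and "knockout" means the RNA labelled so.

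As a group, the members did not differ between the genotypes by more than the arrays differed from each other. Their mean log2 ratio of knockout over wild type had a median of 0.00, with 0.03 on replicate 1 and -0.02 on replicate 2, and the median over all 18991 genes tested was -0.01. The mean lay within 0.1 log2 units of 0 for 32 of the 38 (84.2%), against 67.4% of all genes tested, and within 0.2 for 36. By limma over all genes tested, 0 of the 38 members passed an adjusted p of 0.05 and 0 had an unadjusted p under 0.05. The share called among all genes was 0% adjusted and 1.25% unadjusted. Birc5, with the smallest p among the members, had an adjusted p of 1.00 by limma.

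The precision of these ratios differed among members. The 95% interval of the mean, from limma's moderated spread, had a half-width between 0.38 and 0.98 log2 units with a median of 0.43. It stayed within a 2-fold difference in either direction for 36 members and within a 1.5-fold difference for 25. No member was 1.5-fold or more apart in one genotype direction on both arrays, against 0.158% of all genes tested that were higher by so much and 0.0579% that were lower.

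Signs were mostly opposite on the arrays. Of the 38 members 3 were higher in knockout RNA on both arrays (Birc5, Cdt1 and Mcm6), where 16.9% of all genes tested were, and 4 were lower on both (Ccne2, Ccne1, Cdc6 and Gins1), where 18.2% were. The other 31, or 81.6%, had opposite signs, against 64.9% of all genes tested. With the scanner software's processed ratios 5 members were higher on both (background 20.2%) and 3 lower (background 21.1%). Levels of the 4 channels did not overlap between the genotypes for 5 members. Both knockout levels lay above both wild-type levels for Birc5 and Mcm6 (background 11.5%), and below them for Ccne1, Ccne2 and Cdc6 (background 13.7%).

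**Figure D1:**
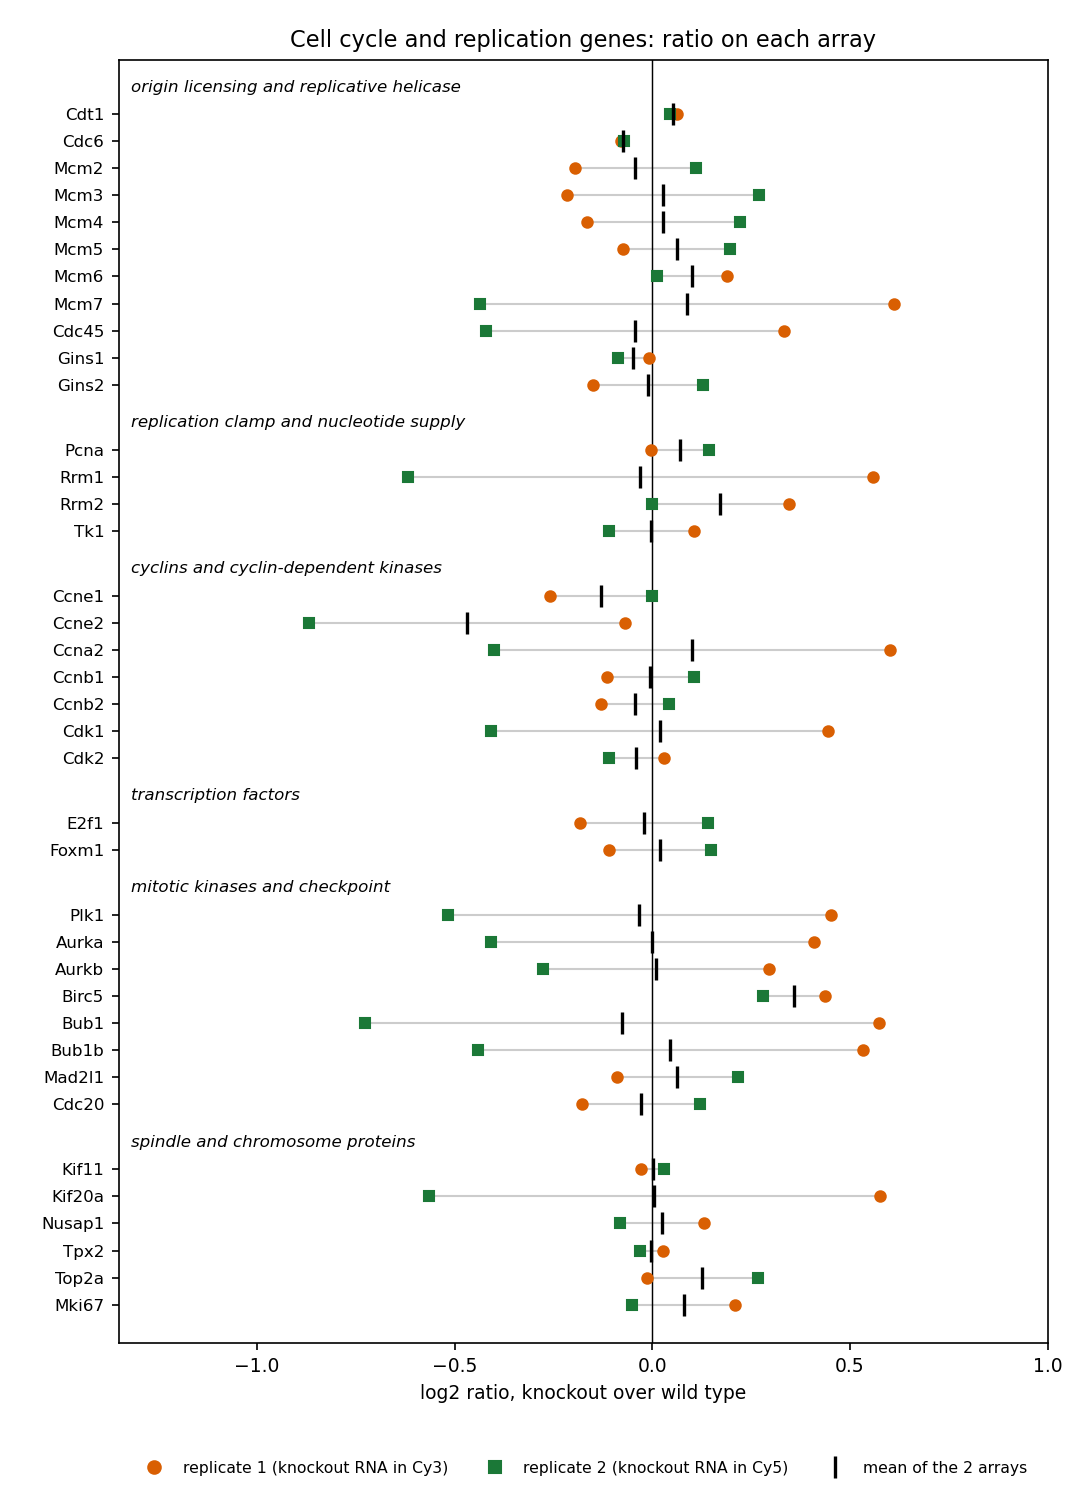
Log2 ratio of knockout over wild-type RNA for the 38 members by role, with replicate 1 as circles, replicate 2 as squares and their mean as a bar. The means lie close to 0, from -0.47 for Ccne2 to 0.36 for Birc5, while the arrays of single members lie up to more than 1 log2 unit apart.

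Origin licensing and helicase genes lay close to 0. Cdt1 and Cdc6 load the MCM complex onto origins, Mcm2 to Mcm7 form it, and Cdc45 with the GINS subunits Gins1 and Gins2 turns it into the moving helicase. Of these 11 genes 2 were higher on both arrays, 2 were lower and 7 had opposite signs, with a median mean ratio of 0.03. Means ran only from -0.08 for Cdc6 to 0.10 for Mcm6.

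Mcm2 had log2 channel levels of 9.78 and 9.84 in knockout RNA, against 9.97 and 9.73 in wild-type RNA (replicates 1 and 2), so the groups overlapped. Its ratios were -0.20 and 0.11, and the mean -0.04 ± 0.22 (SD, n = 2). Mcm6 had 13.16 and 13.02 in knockout RNA, against 12.97 and 13.01 in wild-type RNA. The lower knockout level stood only just above the higher wild-type level, and the mean ratio was 0.10 ± 0.13, with a 95% interval from -0.30 to 0.50. Ratios of the other MCM subunits also had opposite signs, with means of 0.03 for Mcm3, 0.03 for Mcm4, 0.06 for Mcm5 and 0.09 for Mcm7.

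Cdt1 had levels of 11.84 and 11.70 in knockout RNA, against 11.78 and 11.66 in wild-type RNA. Both arrays gave a small positive ratio, 0.06 and 0.04, while the 4 levels overlapped. Cdc6 had 8.03 and 8.04 in knockout RNA, against 8.11 and 8.12 in wild-type RNA. These groups did not overlap, but the mean ratio was only -0.08 ± 0.01, and a second Cdc6 probe gave the other sign, 0.10 ± 0.20. Gins1 had 9.07 and 8.93 in knockout RNA, against 9.08 and 9.02 in wild-type RNA, overlapping. Its mean was -0.05 ± 0.06 at this probe and -0.07 ± 0.07 at its other probe.

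Pcna and the genes of nucleotide supply all had opposite signs on the arrays. Pcna, the sliding clamp of the DNA polymerases, had levels of 13.51 and 13.63 in knockout RNA, against 13.51 and 13.49 in wild-type RNA, with a mean ratio of 0.07 ± 0.10. Rrm1 and Rrm2 encode the subunits of ribonucleotide reductase, which makes deoxyribonucleotides. Rrm1 had 11.46 and 10.77 in knockout RNA, against 10.90 and 11.39 in wild-type RNA. Here the arrays contradicted each other, with ratios of 0.56 and -0.62 and a mean of -0.03 ± 0.83. Rrm2 averaged 0.17 ± 0.24, and Tk1, the thymidine kinase of nucleotide salvage, averaged -0.00 ± 0.15.

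Among 7 cyclins and their kinases none was higher on both arrays, with a median of -0.04 for the group. Both E-type cyclins were lower on both, Ccne1 with a ratio of only -0.002 on replicate 2. Cyclin E with CDK2 drives entry into S phase. Ccne2 had levels of 8.43 and 7.96 in knockout RNA, against 8.50 and 8.83 in wild-type RNA. Both knockout levels lay below both wild-type levels, by 0.40 in Cy3 and 0.54 in Cy5 when the same dye was compared. The ratios were -0.07 and -0.87, so most of the mean of -0.47 ± 0.57 came from replicate 2 (limma, adjusted p = 1.00, 95% interval -1.14 to 0.20).

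Other settings gave Ccne2 the same sign, without a call. The mean was -0.64 with processed ratios, -0.31 with marked spots kept and -0.23 with both its tested probes averaged. Limma on the 4 channel levels with genotype and dye as terms gave an adjusted p of 0.440, and limma on the scanner software's processed ratios gave an adjusted p of 0.517. No member passed the adjusted threshold in either fit, which 0.00527% and 0.205% of all genes tested did. Ccne2 alone had an unadjusted p under 0.05, against 6.44% and 5.02% of all genes tested. A second Ccne2 probe, A_52_P58558, did not repeat the difference, with ratios of 0.20 and -0.20. Ccne1 had 9.692 and 9.796 in knockout RNA, against 9.952 and 9.798 in wild-type RNA, so its levels only just failed to overlap. The ratios were -0.26 and -0.002. On replicate 2 the sign turned with processed ratios, to 0.07, and with the row medians described below removed, to 0.006. Its other probe gave -0.21 and -0.07. The means were -0.13 ± 0.18 and -0.14 ± 0.10 at its 2 probes.

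At their brightest probes the mitotic cyclins and Cdk1 had mean ratios smaller than the SD of the arrays; another Ccnb1 probe, higher on both arrays, is given with its row further below. Ccnb1, a cyclin B that activates CDK1, had levels of 9.14 and 9.24 in knockout RNA, against 9.26 and 9.14 in wild-type RNA. The groups overlapped and the mean ratio was -0.01 ± 0.16. Cdk1, the kinase that starts mitosis, had 9.68 and 9.31 in knockout RNA, against 9.24 and 9.72 in wild-type RNA. Its ratios of 0.45 and -0.41 cancelled to a mean of 0.02 ± 0.60. Ccna2 had opposite signs too, with 0.60 and -0.40, while Ccnb2 and Cdk2 each averaged -0.04. E2f1, the S phase transcription factor, averaged -0.02 ± 0.23, and Foxm1, which drives mitotic genes, averaged 0.02 ± 0.18.

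Mitotic kinases and checkpoint genes had the widest gap between the arrays. Over 8 genes the median was 0.42 on replicate 1 and -0.34 on replicate 2, with 0.01 for the means. Plk1 and Aurka act at centrosomes and the spindle, Aurkb with survivin (Birc5) corrects chromosome attachment, Bub1, Bub1b and Mad2l1 hold anaphase until chromosomes are attached, and Cdc20 releases it. Bub1 had 9.49 and 8.73 in knockout RNA, against 8.92 and 9.45 in wild-type RNA, which gave the widest gap of ratios among the members, 0.57 and -0.73. Aurka (0.41 and -0.41), Aurkb (0.30 and -0.28), Bub1b (0.53 and -0.44) and Plk1 (0.45 and -0.52) shared this form. At their brightest probes Cdc20 (-0.18 and 0.12) and Mad2l1 (-0.09 and 0.22) ran the other way. The form depended on the probe. Another Mad2l1 probe, in row 121, gave 0.56 and -0.57, and another Bub1 probe, in row 270, gave -0.29 and 0.37. The brightest probes of Aurka, Aurkb, Bub1, Bub1b and Plk1 lie in rows 12 to 104, those of Cdc20 and Mad2l1 in rows 155 and 305.

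Birc5 alone of the 8 had one sign on both arrays, with levels of 13.21 and 13.48 in knockout RNA, against 12.77 and 13.20 in wild-type RNA. Both arrays gave a positive ratio, 0.44 and 0.28, with a mean of 0.36 ± 0.11 and a 95% interval from -0.03 to 0.75. Within Cy3 the knockout level exceeded wild type by 0.01, and within Cy5 by 0.71. Its single probe lies in row 133 of the array, inside a stretch of rows in which genes of all kinds gave positive ratios, described further below.

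Spindle and chromosome proteins all had opposite signs on the arrays. Mki67, which coats mitotic chromosomes and marks cycling cells, had levels of 13.51 and 13.35 in knockout RNA, against 13.30 and 13.40 in wild-type RNA. The groups overlapped, with a mean ratio of 0.08 ± 0.19 at this probe and 0.01 ± 0.05 at the probe printed above. Top2a, the topoisomerase that untangles replicated DNA, had 8.996 and 9.134 in knockout RNA, against 9.01 and 8.87 in wild-type RNA, and averaged 0.13 ± 0.20. Kif20a, a kinesin of late mitosis, had 11.68 and 11.05 in knockout RNA, against 11.10 and 11.62 in wild-type RNA, and averaged 0.01 ± 0.81. The spindle motor Kif11 and the microtubule binders Nusap1 and Tpx2 averaged 0.00, 0.02 and -0.00.

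**Figure D2:**
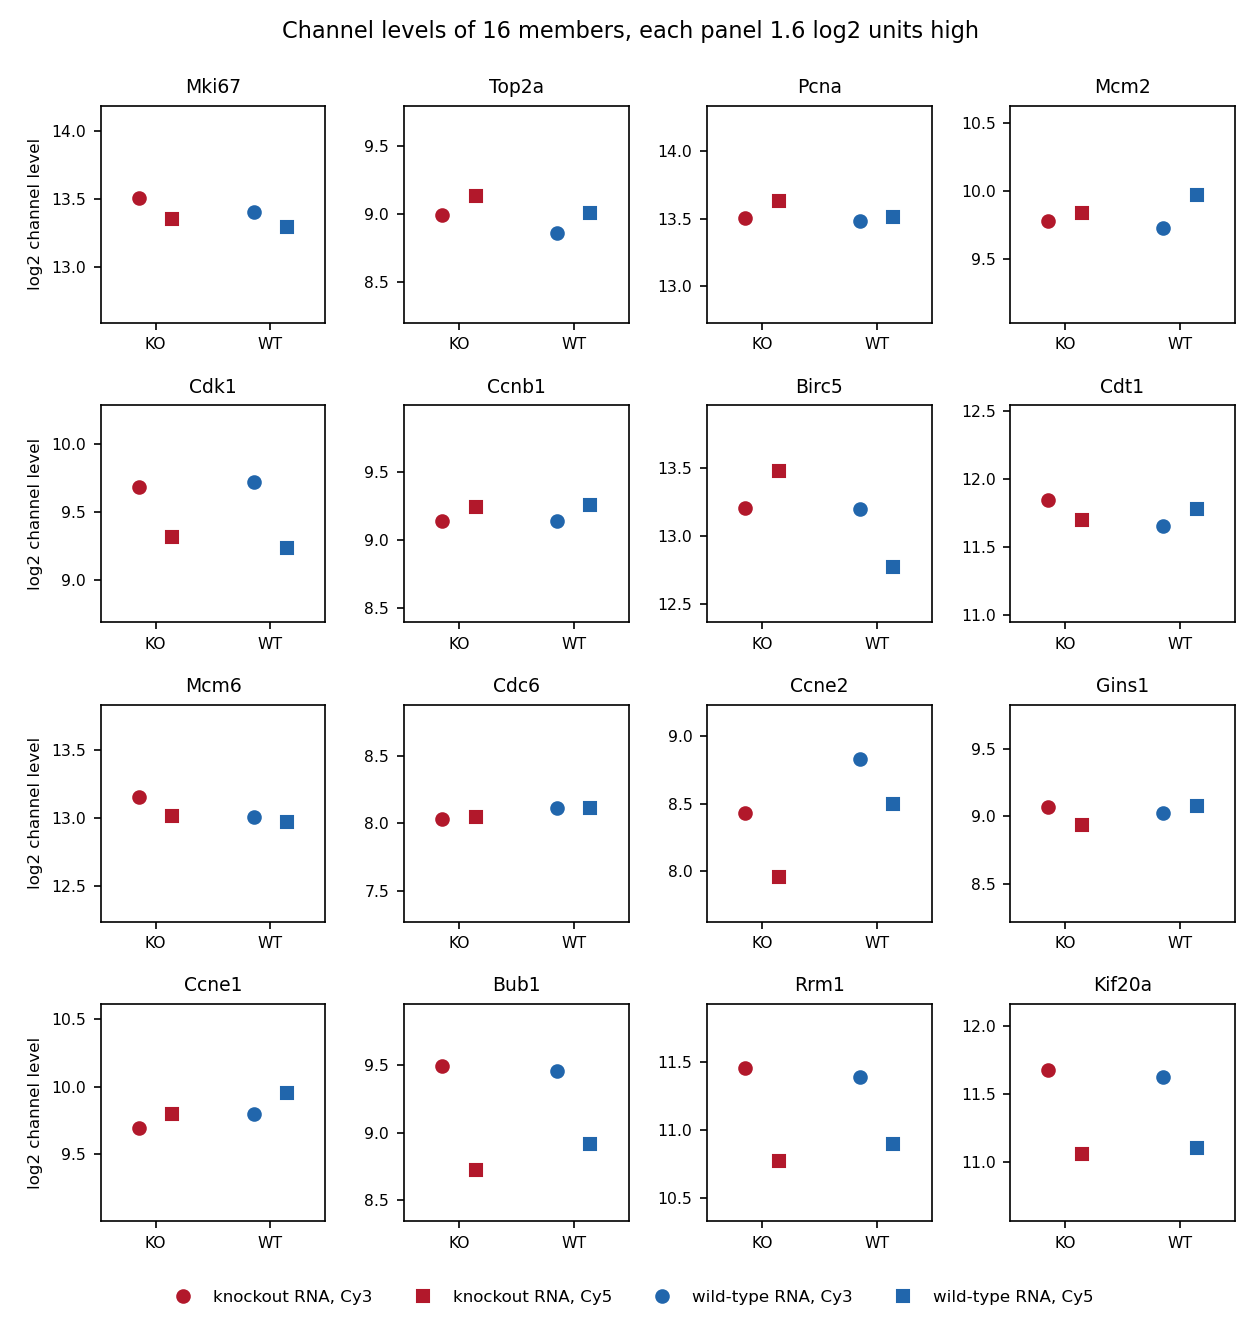
Log2 channel levels of the 16 members described by channel, knockout RNA left and wild-type RNA right in each panel, with Cy3 as circles and Cy5 as squares; panels have different centres and the same height. In Bub1, Rrm1, Kif20a and Cdk1 the Cy3 level exceeds the Cy5 level in both genotypes, whereas in Ccne2 both knockout points lie below both wild-type points.

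A turned ratio with opposite signs is a difference that keeps one sign when read as Cy5 over Cy3. For the 31 members the mean of Cy5 over Cy3 was thus larger in size than the mean turned ratio. With 2 arrays this holds for any opposite signs, so dye cannot be told apart from other differences between the arrays. The genotype mean was taken from the turned ratios, the dye ratio from the mean of Cy5 over Cy3. The dye ratio had a median size of 0.15 over the members and 0.12 over all genes tested, and the genotype mean one of 0.04 over the members and 0.06 over all genes tested. None of the members reached a 1.5-fold difference in one dye direction on both arrays, which 1.05% of all genes tested did. Across genes, replicate 1 and replicate 2 ratios had a Pearson's r of -0.70 over the 38 members and -0.38 over 18991 genes. The value depended on the normalization: with median centring it was -0.74 and -0.50, and with the processed ratios -0.44 over the members and -0.02 over all genes tested. These points share the same arrays, dyes and places on the array, and genes are not independent replicates.

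**Figure D3:**
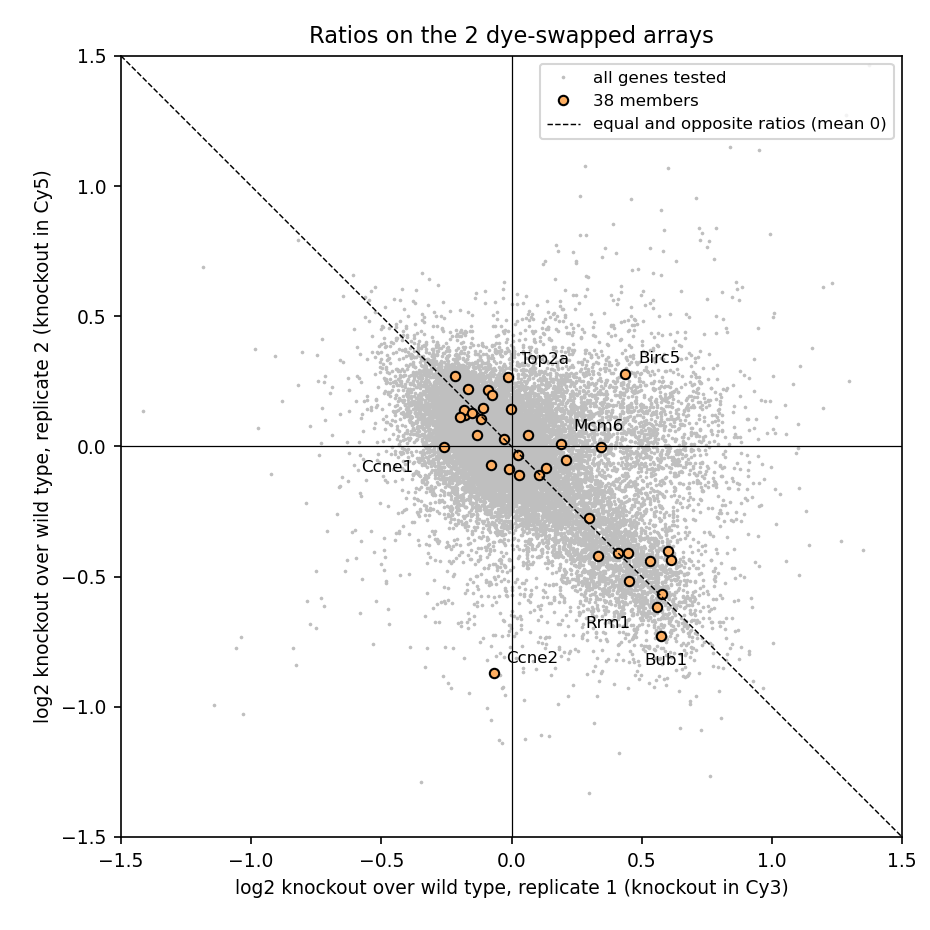
Turned log2 ratio of replicate 1 (horizontal) against replicate 2 (vertical) for all 18991 genes tested (grey) and the 38 members (orange), on axes cut at 1.5 log2 units, with 8 genes outside. Most members lie along the dashed line of equal and opposite ratios; Birc5 stands at the upper right and Ccne2 at the lower left.

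The dye part went in part with the place of the probe on the array. Of the 55 tested member probes 13 had a mean Cy5 over Cy3 log2 ratio under -0.25, and 12 of these lay in rows 12 to 124. The remaining one was the Ccne2 probe A_52_P58560 in row 518. Of all tested probes in rows 1 to 133, 55.8% lay under -0.25, against 3.46%, 0.730% and 12.1% in the next equal bands. In rows 1 to 133 the 15 member probes had a median dye ratio of -0.48, with turned ratios of 0.45 on replicate 1 and -0.42 on replicate 2 that left a mean of 0.01. All tested probes in those rows had a median dye ratio of -0.28. With the processed ratios, which the software had detrended over the surface, the medians there were -0.16 for the member probes and -0.07 for all. Over the next equal bands of rows the member medians were 0.09, 0.09 and -0.07. Spearman's rank correlation of the dye ratio over the 55 probes was 0.37 with row and 0.00 with GC content. With row it was 0.28 over all 29091 tested probes. No cause of the dye part was tested.

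Probes of one gene in different rows could also differ in dye ratio. The Mad2l1 probe A_51_P230873 in row 121 had a dye ratio of -0.57, whereas A_51_P230878 in row 305 had 0.15. Their genotype means were -0.01 and 0.06. The Bub1 probe A_51_P123405 in row 104 had a dye ratio of -0.65 and another Bub1 probe in row 270 had 0.33, with genotype means of -0.08 and 0.04. Kif20a, with probes that share 33 bases, gave -0.57 in row 104 and 0.03 in row 374. Over the 15 members with several tested probes the probes' dye ratios differed by a median of 0.17 and their genotype means by 0.08, and 6 of the 15 had one sign of the mean at every probe. Probes of a gene share their transcript and are no replicates of a genotype.

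Pcna, whose probe is printed 10 times, showed the spread within a probe. The software marked 2 spots as outliers, and the other 8 gave turned ratios from -0.27 to 0.50 on replicate 1 and from -0.39 to 0.31 on replicate 2, with an SD of 0.28 and 0.23. The spot in row 94 had 0.32 and -0.39, and the spot in row 142 had 0.50 and 0.30. The E2f1 probe printed 10 times varied less, with an SD of 0.10 and 0.14. That probe is dim, with log2 levels of 6.24 to 6.26 against 13.49 to 13.63 for Pcna, so the SDs are not compared at like brightness. Over all 245 probes printed so the median SD was 0.183 on replicate 1 and 0.121 on replicate 2.

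Rows 121 to 150 stood apart in the genotype direction. There 1078 genes of all kinds had a median turned ratio of 0.40 on replicate 1 and 0.06 on replicate 2, with 0.20 for the mean. Of these genes 56.2% were higher in knockout RNA on both arrays, against 14.6% of the 17913 genes elsewhere. The processed ratios kept the stretch, with a median of the mean of 0.22 inside it and -0.03 elsewhere. In rows 111 to 120, just before it, the median of all tested probes was 0.32 on replicate 1 and -0.15 on replicate 2, and in rows 161 to 170, after it, -0.10 and 0.10. Birc5 lies in this stretch as do Rrm1 and Cdc45, which had opposite signs. Another Ccnb1 probe, in row 138, lies there too and gave 0.30 and 0.21, a mean of 0.25 ± 0.06, whereas the Ccnb1 probes in rows 293 and 184 gave -0.01 and -0.11.

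With the median of a 5-row window taken off each spot, an alternative added after these values had been seen, Birc5 gave 0.03 and 0.22, a mean of 0.13 with a 95% interval from -0.17 to 0.42. The Ccnb1 probe in row 138 then averaged 0.01. Ccne2 kept its sign, with -0.30 and -0.66, a mean of -0.48 and an interval from -0.79 to -0.16 (limma, adjusted p = 0.869). The second Ccne2 probe, in row 147, became -0.15 and -0.29, so that both Ccne2 probes lay below 0 on both arrays under this setting. In all, 8 members were then higher on both arrays (background 19.7%) and 4 lower (19.7%), and 0 passed limma's adjusted p of 0.05 (background 0.0685%). Ccne2 alone had an unadjusted p under 0.05 (background 3.34%). The correlation of the arrays was weaker, r = -0.26 over the members and -0.11 over all genes tested. The Bub1, Mad2l1 and Kif20a probes still differed under this setting. Bub1 gave 0.23 and -0.51 in row 104, against -0.19 and 0.30 in row 270. Mad2l1 gave 0.18 and -0.48 in row 121, against 0.00 and 0.18 in row 305. Kif20a gave 0.23 and -0.35 in row 104, against 0.06 and 0.06 in row 374. What the remaining differences come from was not tested.

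**Figure D4:**
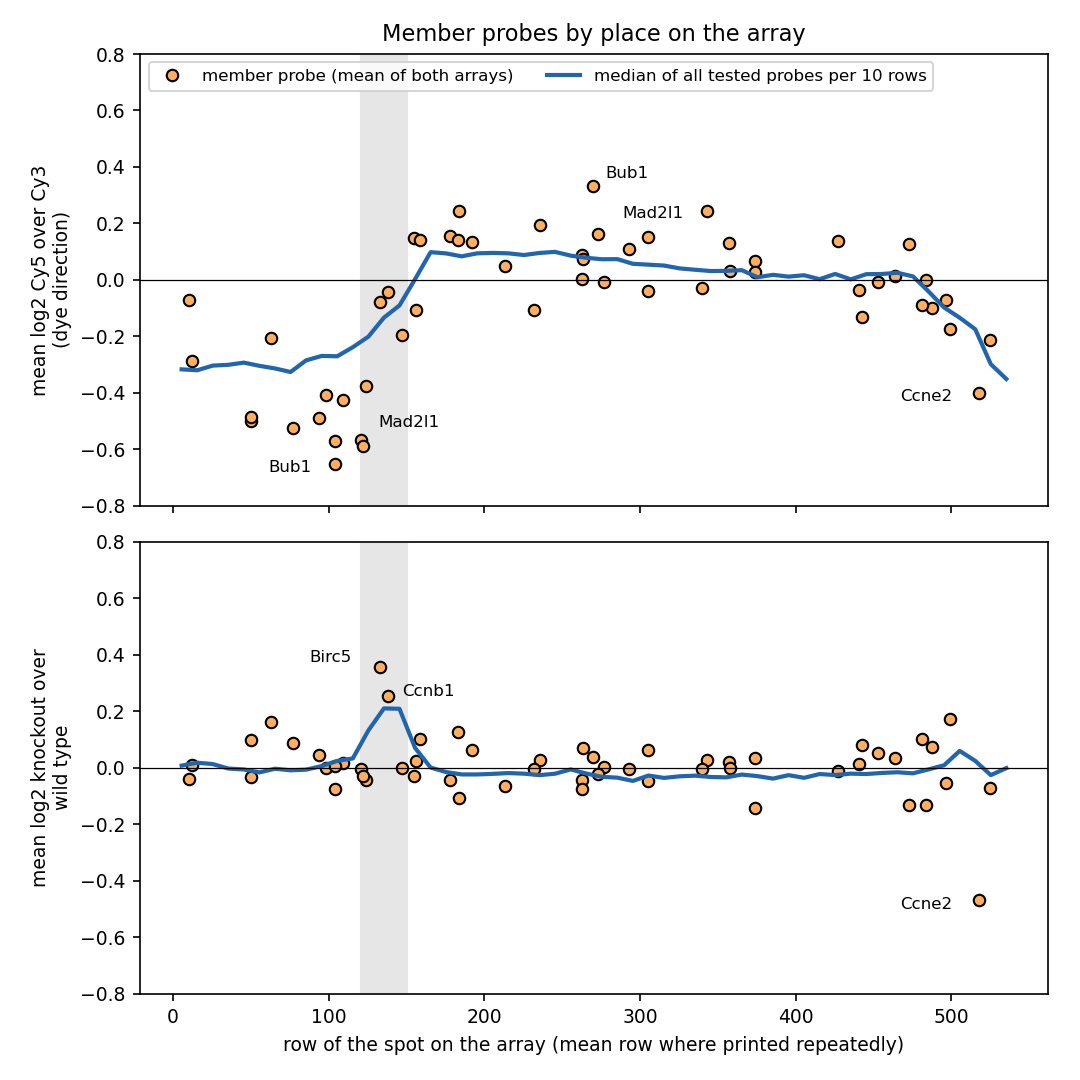
The 55 tested member probes by array row, above as mean log2 Cy5 over Cy3 and below as mean log2 knockout over wild type, with the median of all tested probes per 10 rows as a line and rows 121 to 150 shaded. Above, member probes in rows 1 to 133 are low as the line is, but lower, with a median of -0.48 against -0.28 for all tested probes. Bub1 and Mad2l1 have probes on both sides of 0. Below, the Birc5 probe and a Ccnb1 probe stand in the shaded rows where the line rises to 0.21.

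Other cell cycle genes, from 8 lists that hold no member, also lay about 0. Of 198 measured genes 29 were higher on both arrays (background 16.9%), 22 were lower (18.2%) and 147 (74.2%) had opposite signs (64.9%). Their median was 0.01, with a range from -0.32 to 0.49. By limma 0 passed the adjusted threshold (background 0%) and 3 had an unadjusted p under 0.05 (1.25%). None of the 198 was 1.5-fold apart in one direction on both arrays (background 0.158% higher and 0.0579% lower). All 5 of these genes that lie in rows 121 to 150 (Dut, Gins4, Cenpe, Anapc1 and Dna2) were higher on both, against 24 of the 193 elsewhere (12.4%).

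Medians of the lists ran from -0.02 to 0.04. Among 39 origin and fork genes 5 were higher and 4 lower, with mean ratios of 0.42 for Orc4, an origin recognition subunit, 0.32 for Gins4 and -0.21 for Dbf4, the activator of the Cdc7 kinase. Among 11 genes of nucleotide supply 3 were higher and 1 lower; Dtymk, the thymidylate kinase, averaged 0.37 ± 0.13, Dck, which phosphorylates deoxycytidine, 0.24 ± 0.06, and Dut, the dUTPase, 0.32 ± 0.27. Of these, Dtymk and Dck lie outside the stretch and averaged 0.34 and 0.19 with row medians removed, Dut 0.08. Among 23 G1 cyclin, Rb and E2F genes 3 were higher and 2 lower, with 0.41 for the repressor E2f6, -0.19 for cyclin D1 (Ccnd1) and -0.14 for Lin54, a DNA-binding subunit of the DREAM complex.

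Brakes on the cycle showed no common direction. Among 16 measured CDK inhibitors and p53 targets 2 were higher and 3 lower, with -0.24 ± 0.08 for Gadd45a, -0.17 ± 0.07 for Sesn2 and 0.07 ± 0.02 for Cdkn2b, the inhibitor p15. A further list of 11 genes of quiescence and growth arrest had 2 higher and 2 lower, with 0.38 ± 0.23 for Btg1 and -0.12 ± 0.04 for Tob1, related antiproliferative proteins, and 0.05 ± 0.02 for Cdkn1a, the inhibitor p21. None of these passed limma's test.

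Later steps of the cycle were as mixed. The anaphase promoting complex and its regulators had 4 higher and 3 lower of 21, with 0.49 for Anapc1, -0.26 for Anapc4 and -0.10 for Anapc2, all subunits of that ubiquitin ligase. The 47 spindle, kinetochore and cytokinesis genes had 8 higher and 5 lower, with 0.44 for shugoshin (Sgo1), 0.34 for the kinetochore motor Cenpe and 0.20 for Ect2. Orc4, Sgo1 and E2f6 lie in rows 151 and 152, at the edge of the stretch, and averaged 0.27, 0.29 and 0.29 with row medians removed. Anapc1, Cenpe and Gins4 lie inside the stretch and averaged 0.27, 0.11 and 0.08 with row medians removed. Condensin, cohesin and chromatin genes had 4 higher and none lower of 23, with 0.42 ± 0.48 for the cohesin subunit Smc1a, 0.18 ± 0.13 for Uhrf1, which keeps DNA methylation through replication, and 0.04 ± 0.02 for the remodeller Hells. Replication stress and recombination genes had none higher and 4 lower of 18, with -0.24 ± 0.07 for Brca2 and -0.06 ± 0.04 for Rad54l, both of homologous recombination, and -0.04 ± 0.01 for the mismatch repair gene Msh6.

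**Figure D5:**
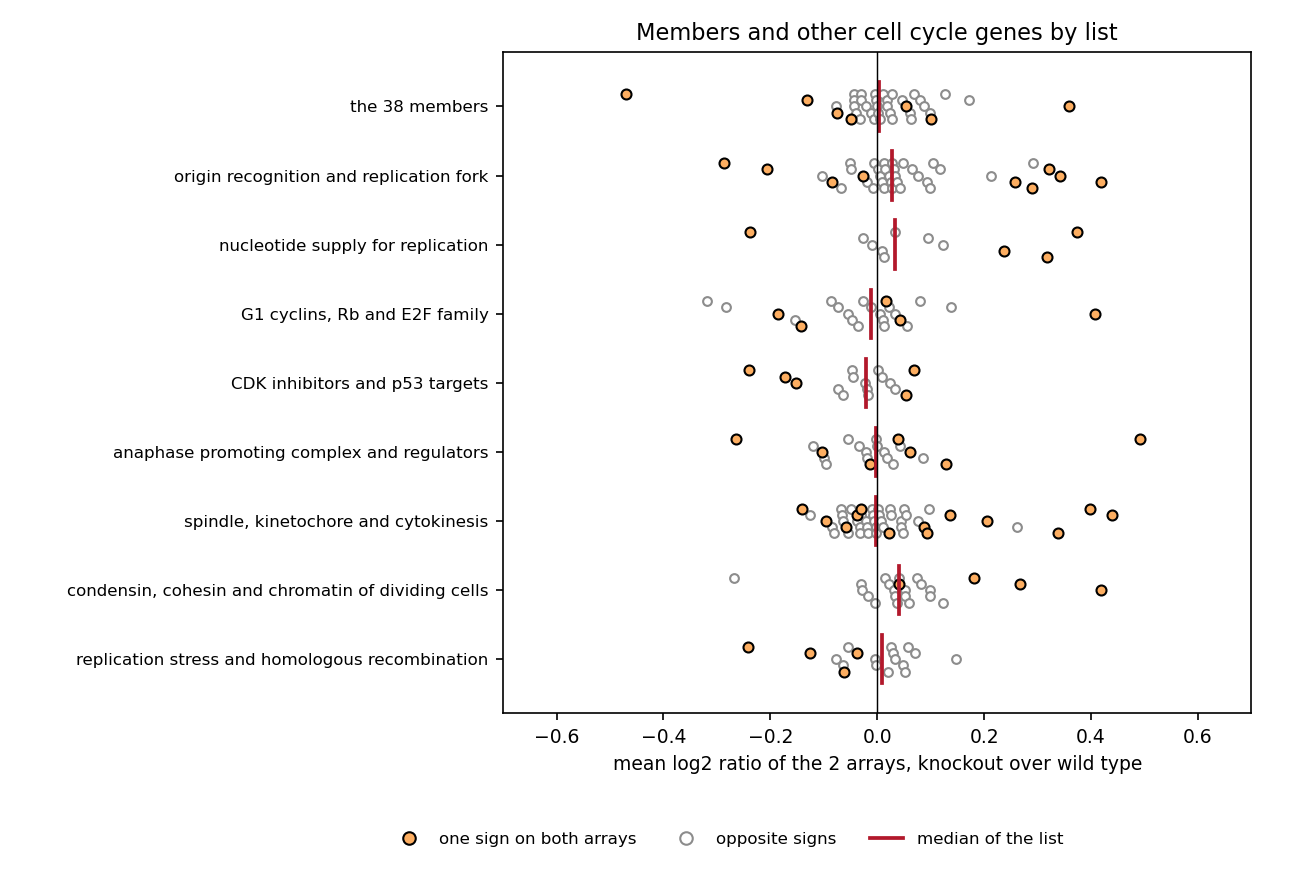
Mean log2 ratio of knockout over wild-type RNA for the 38 members and for the 8 lists of other cell cycle genes, filled where both arrays had one sign and open where signs were opposite, with the list median as a red line. The list medians stay between -0.02 and 0.04 while single genes reach -0.47 and 0.49. The value of 0.49 is that of Anapc1 in row 147, which averaged 0.27 with row medians removed.

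Markers of cell types that could change the number of dividing cells were measured on the same arrays. Of 12 crypt stem cell markers 3 were higher on both arrays and 2 lower, with a median of -0.01 and summed linear levels of 14959 and 14732 in knockout RNA, against 15139 and 14986 in wild-type RNA. All 13 enterocyte markers were measured, the defining genes of the labelled tissue, with 5 higher and 4 lower, a median of -0.03 and sums of 643764 and 649445 in knockout RNA, against 595445 and 609941 in wild-type RNA. Among the higher ones were Fabp1 with ratios of 1.28 and 1.27, Lct with 1.85 and 0.98, and Fabp2 with 0.95 and 0.45. The 4 lower ones were Sis with -0.27 and -0.04, Slc5a1 with -0.11 and -0.04, Vil1 with -0.11 and -0.01, and Alpi with -0.02 and -0.10. The bright Fabp2 lies in row 137 of the stretch described above. It had log2 levels of 17.16 and 17.17 in knockout RNA, against 16.21 and 16.72 in wild-type RNA. Bright genes weigh most in a sum of linear levels, so the higher enterocyte sums cannot be read apart from Fabp2. All 9 B cell markers were higher (median 0.40, sums 8261 and 7764 in knockout RNA, against 5394 and 5610 in wild-type RNA), and 3 of 6 germinal centre markers were higher and 1 lower (sums 6405 and 5372 in knockout RNA, against 4653 and 5360 in wild-type RNA). Of 8 T cell markers 6 were higher (median 0.15, sums 3587 and 3555 in knockout RNA, against 2896 and 3037 in wild-type RNA), and 5 of 7 Paneth cell markers were lower (median -0.25, sums 491084 and 521563 in knockout RNA, against 691247 and 597168 in wild-type RNA). Of 8 tuft cell markers 5 were higher and 1 lower (median 0.25, sums 5176 and 4863 in knockout RNA, against 3995 and 4379 in wild-type RNA), and Rgs13 stands in both the tuft and the germinal centre list. Of 6 exocrine pancreas and adipocyte markers 4 were lower (sums 15510 and 14133 in knockout RNA, against 20862 and 19481 in wild-type RNA). Skeletal muscle genes, from a tissue that hardly divides, had 6 of 8 higher and 2 lower (sums 4320 and 4022 in knockout RNA, against 2406 and 2258 in wild-type RNA). What these cells add to the members' levels was not tested.

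Promoters of the members were searched for motifs of cell cycle transcription in RefSeq sequence of GRCm38.p6, from 250 bases before to 50 after the start. Of the 38 genes 29 had an entry, with 30 promoters. The cell cycle homology region (TTTGAA or TTTAAA, bound by the DREAM and B-MYB complexes) was found in 17 (56.7%, against 27.6% of all 32851 promoters), and CCAAT, the NF-Y box, in 22 (73.3%, against 37.4%). An E2F motif (TTTGGCG or TTTCGCG or TTTCCCG or TTTGCCG) was found in 10 (33.3%, against 6.70%). Both strands were searched, matches of different motifs could overlap, and 14 promoters held both the homology region and CCAAT (46.7%, against 10.7%). A match of letters is a description of these windows only.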

How the data were processed

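Per the file headers, the deposited scanner output gives the mean pixel intensity of every spot in Cy3 and Cy5 and its median local background, from Agilent Feature Extraction 11.5.1.1; the submitters' processing notes name 9.5. The deposited log10 ratio, processed Cy5 over Cy3 per the file headers, and its software p-value served as alternatives, as did the deposited value table, which holds the same log10 ratios rounded, unturned and with a median of 0 per array. It has 0 columns of no sample.

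From these, log2 ratios were computed in R 4.3.3 with limma 3.58.1: marked spots left out, normexp background correction (offset 50), loess per array (control spots weighted 0), spots of a probe averaged, and ratios turned so that knockout stands over wild type. Probes well above background on both arrays in at least one genotype were tested, and the brightest such probe stood for its gene. Channel levels were scaled between arrays (Aquantile). Limma's lmFit and eBayes tested the mean against 0 over 18991 genes, with Benjamini-Hochberg adjustment at 0.05 (degrees of freedom 1 residual, 3.00 prior); the fit was tested on simulated data. Both arrays lie on 1 slide, so no slide effect could be tested.

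Members, lists and the rule for names were chosen with earlier results of these data known. Channel values are given for 6 fixed markers, for up to 6 members higher and up to 6 lower on both arrays by the smaller of the ratios, and for the 3 with opposite signs farthest apart; up to 3 genes per other list are named by the same value. Dna2, which falls outside this rule, was chosen after its values were seen. Alternatives changed the background correction, normalization, surface trend, filter, probe choice, fold threshold and source of the ratios, or left out an array.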

Additional observations from a re-analysis of the deposited data

How the results depend on the processing

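Limma called 0 of the 38 members at an adjusted p of 0.05 under every setting with a test, and none was 1.5-fold apart in one direction on both arrays; at 1.3-fold and 2-fold the count was 0 too. The median ratio stayed between -0.02 and 0.02 over 13 settings. Over all genes limma called 0 as reported, 1 with a dye term, 13 with row medians removed and 39 with processed ratios. Counts of members with one sign moved more. Higher on both were 5 with processed ratios, with the deposited value table and with a smooth surface removed, 8 with row medians removed, and 6 of 55 when each probe stood by itself. Lower on both were 9 with marked spots kept, 2 with the surface removed or all tested probes averaged, and 7 of 55 by probe. Knockout levels lay above wild type for 4 with marked spots kept or row medians removed, and for 1 with median centring, the surface removed or probes outside rows 1 to 133 (28 genes). They lay below for 1 with processed ratios, the value table or averaged probes, for 8 with marked spots kept, and for 6 of 55 by probe. The cause was not tested. Shares over all genes are given above for the main setting, and for sign counts with processed ratios or row medians removed. For the other counts no share over all genes or probes is given here. Whether they differ from the background cannot be read from them. On a single array 17 to 20 were higher, 18 to 21 lower and 2 to 3 at least 1.5-fold apart. Of 221 values of named members 204 moved by less than 1 SD and 17 by more. The limma test is paired as it stands, since each ratio sets both genotypes against each other on one array. Row medians removed, the dye term and rows outside 1 to 133 were added after the data had been seen. For 13 members the 95% interval reached past a 1.5-fold difference.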
